A study of Mus musculus with 8 samples.

Results

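The genes described here are 10 components of the Notch pathway: the 3 receptors Notch1, Notch2 and Notch3, the 3 ligands Dll1, Dll3 and Jag1, and the 4 effectors Hes1, Hes5, Hey1 and Heyl. They were chosen by gene name, and every non-control probe whose accession RefSeq assigns to one of them was taken, which gave 14 probes. They are 10 of the 18842 genes with a probe, and all 10 were among the 13619 genes that passed the filter on dim probes and were tested. The filter kept a probe that rose well above background on each array of 1 group or more. All 14 probes passed that filter. The probe of Hes5 and both probes of Heyl did so only through EGFP cells at 72 h. The probe of Dll1 did so only through the 72 h groups. Differences of these probes from the other groups are thus in part fixed by the filter.

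Notch signalling passes between touching cells. A Delta or Jagged ligand on the surface of a cell binds a Notch receptor on its neighbour, the receptor is cut by ADAM proteases and then by gamma-secretase, and the freed intracellular domain enters the nucleus. There it joins the DNA-binding protein RBPJ and a Mastermind coactivator and switches on genes of the HES and HEY families, transcriptional repressors that hold neural progenitors back from differentiating by repressing proneural genes.

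The cells were N31, a single line of neural progenitor cells (NPC) that had been made from embryonic stem cells of the mouse, made to express either W20 or the fluorescent protein EGFP as the control. The series deals with bacterial proteins that speed up reprogramming, and the comparison of W20 with EGFP asks how expression of W20 changes gene expression. Total RNA was labelled with Cy3 and hybridised to 8 single-colour Agilent whole mouse genome arrays, 2 per group. Whether the 2 arrays of a group stand for separate cultures is not stated in the labels. The p-values therefore reflect the spread between arrays alone, and that spread may be technical.

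The groups were EGFP NPC and W20 NPC, both kept on gelatin in NPC medium with EGF and bFGF at 10 ng/ml each, and EGFP cells and W20 cells 72 h after reprogramming was started. The 72 h cells received Dox at 40 ng/ml throughout. The first 48 h were in NPC medium and the next 24 h in GMEM with 10% KSR, LIF at 1000 U/ml, ACTH, sodium pyruvate, nonessential amino acids and 2-mercaptoethanol. Which genes Dox drives in these cells, and how W20 and EGFP were introduced, is not given in the sources used here. All groups share the N31 line, so the values describe 1 line.

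The 75th percentile of the signal was 827 to 938 intensity units per array, and 57.0% to 62.4% of the spots were well above background. Replicate arrays differed by a median SD of 0.030 to 0.041 log2 units. Of 8 neural progenitor markers, 7 were well above background on all 8 arrays, and Fabp7 was so on 5. The NPC arrays were all on one slide and the 72 h arrays on another, so slide and stage cannot be told apart, and within each slide the EGFP and W20 arrays lay at different positions, so position and W20 cannot be told apart. A level below is the log2 signal minus the 75th percentile of the array, and a difference, also in log2 units, stands with its standard error (SE) from 1 limma fit over the 8 arrays, with n = 2 arrays per group and p-values adjusted over all 13619 genes. A gene was called where the adjusted p was under 0.05.

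The 250 bases before the start site of 3 of the genes are shown because these genes had the largest W20 effects or changes over 72 h among those with a promoter in the RefSeq table (GRCm38.p6), which held 7 of the 10. RBPJ binds sequences with the core TGGGAA, so this core was searched on both strands, along with the longer form GTGGGAA, which contains it. Capitals mark the core. The Hes5 promoter is at chr4:154960673-154960922 on the plus strand. This window lies inside the annotated gene, chr4:154960626-154962372, so the start site used for Hes5 is an inner one. The Dll1 promoter, the outer of the gene's start sites in the table, is at chr17:15376933-15377182 on the minus strand. The Notch3 promoter is at chr17:32166891-32167140 on the minus strand.
Hes5: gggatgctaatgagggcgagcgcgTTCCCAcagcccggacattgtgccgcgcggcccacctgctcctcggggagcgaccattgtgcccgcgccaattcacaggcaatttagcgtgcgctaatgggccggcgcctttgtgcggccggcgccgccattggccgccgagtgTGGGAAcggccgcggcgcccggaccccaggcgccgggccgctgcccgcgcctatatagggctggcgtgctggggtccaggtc
Dll1: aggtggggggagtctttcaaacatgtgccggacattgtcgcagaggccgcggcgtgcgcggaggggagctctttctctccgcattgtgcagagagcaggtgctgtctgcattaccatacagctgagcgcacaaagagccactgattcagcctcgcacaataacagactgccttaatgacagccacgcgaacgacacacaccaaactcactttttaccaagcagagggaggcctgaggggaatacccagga
Notch3: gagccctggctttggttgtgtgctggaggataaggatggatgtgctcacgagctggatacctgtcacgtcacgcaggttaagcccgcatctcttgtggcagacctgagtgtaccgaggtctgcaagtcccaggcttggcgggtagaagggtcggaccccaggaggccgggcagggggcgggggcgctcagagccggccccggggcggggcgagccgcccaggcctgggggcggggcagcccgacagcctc
Hes5 held the core at 2 places, at -226 to -221 on the opposite strand and at -82 to -77 on the strand of the gene, counted from the start site, and both were also matches of the longer form. None of the other 6 genes in the table, which include Notch1, Notch2, Dll3 and Jag1, had a match in the windows given for it. Among 32851 mouse promoters of the same length, 21.6% held at least 1 core, 2.77% held at least 2, and 5.42% held the longer form. A match is a run of letters and shows no binding, and the absence of a match says only that these letters are not in the window.

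In NPC, W20 cells had lower Notch3, Notch2 and Hey1 than EGFP cells, and the other 7 genes passed the threshold in neither direction. Notch3, a receptor also known for its part in vascular smooth muscle, differed most. The 3 calls, all lower, compare with 23.7% of all tested genes called lower, and the 0 called higher with 31.8% called higher; at an unadjusted p under 0.05, the same 3 differed. Either way 55.5% of all genes were called, and 3 of 10 is not above that share. The median difference of the 10 genes was -0.02, against 0.04 over all genes, so the set as a whole lay near the centre of the array.

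Notch3 had levels of -0.48 and -0.20 on the EGFP NPC arrays and -2.07 and -2.11 on the W20 NPC arrays. The groups were far apart compared with their spread, and both W20 arrays were lower. The difference was -1.75 ± 0.11, a 3.36-fold lower signal (adjusted p = 0.000193), and it was between -1.88 and -1.49 under the 19 alternatives tried. In bulk RNA, fewer cells that express a gene and less RNA per cell cannot be told apart. All 5 fibroblast markers fell as Notch3 did, and so did some of the mural markers. The summed fibroblast signal, relative to the 75th percentile, was 22.8 to 26.2 in EGFP NPC and 8.45 to 8.66 in W20 NPC. Of the 5, Lum was well above background only on the 2 EGFP NPC arrays. That group alone admitted Lum to the test, so its fall is in part fixed by the filter. Of the 6 tested mural and smooth muscle markers 3 fell, 1 rose and 2 were not called, with differences between -2.26 and 0.76. The sum over 7 was 44.0 to 47.4 in EGFP NPC against 35.9 to 37.1 in W20 NPC. Pdgfrb, the receptor that marks pericytes and fibroblasts, fell most of the 6, by 2.26 ± 0.083 (adjusted p = 5.82e-05), while the pericyte marker Rgs5 was above background on none of the 8 arrays. Their part in the Notch3 result was not tested.

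Notch2, a receptor detected on all 8 arrays, had levels of 2.22 and 2.30 in EGFP NPC and 1.89 and 1.93 in W20 NPC. The groups did not overlap. The difference was -0.35 ± 0.081 (adjusted p = 0.0130), and it lost the call without replicate 2 of EGFP NPC (adjusted p = 0.0698) or replicate 1 of W20 NPC (adjusted p = 0.0598). A second of the 3 Notch2 probes was also lower, by -0.20 ± 0.038 (adjusted p = 0.00937 over all probes), and the third, near the lower limit of detection, gave -0.16 ± 0.17 (adjusted p = 0.473).

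Hey1, a bHLH repressor downstream of Notch, had levels of -3.51 and -3.41 in EGFP NPC and -3.85 and -4.03 in W20 NPC. Both W20 arrays were again below both EGFP arrays. The difference was -0.48 ± 0.087, or 1.39-fold lower (adjusted p = 0.00540), and remained called under all 19 alternatives, with adjusted p between 0.00191 and 0.0347. With normexp it shrank to -0.29.

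Hes1, the effector that oscillates in neural progenitors, had levels of -1.69 and -1.98 in EGFP NPC and -2.02 and -2.19 in W20 NPC. The W20 arrays were the lower pair, but the EGFP arrays differed between themselves about as much, and the difference of -0.26 ± 0.12 missed the threshold (adjusted p = 0.117). It passed with normexp background correction (adjusted p = 0.0279) and without replicate 2 of EGFP NPC (adjusted p = 0.0463). Notch1, the receptor most studied in neural stem cells, was -1.11 and -1.12 in EGFP NPC and -1.07 and -1.12 in W20 NPC. These levels overlapped, with a difference of 0.02 ± 0.068 (adjusted p = 0.780). Jag1, the Jagged-family ligand, had overlapping levels too, -0.12 and 0.03 against -0.07 and -0.14 (difference -0.06 ± 0.057, adjusted p = 0.419).

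The other 4 genes were dim in NPC. Dll1, a Delta ligand that differentiating progenitors present to their neighbours, and the effectors Hes5 and Heyl did not rise well above background on the 4 NPC arrays, and folds are left out for them. Dll1 passed the threshold without replicate 1 of EGFP NPC (adjusted p = 0.0263) and Hes5 without replicate 2 (0.74, adjusted p = 0.00830), in both cases between groups below background. Dll3, a Delta relative that acts inside the cell and inhibits Notch in its own cell, was detected on all 4 at -5.17 and -5.06 with EGFP and -4.72 and -4.79 with W20. Its W20 arrays were the higher pair, but its difference of 0.36 ± 0.27 did not pass (adjusted p = 0.293); it passed when only the 4 NPC arrays were fitted (adjusted p = 0.0125) and in the authors' value table (adjusted p = 0.0137).

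**Figure D1:**
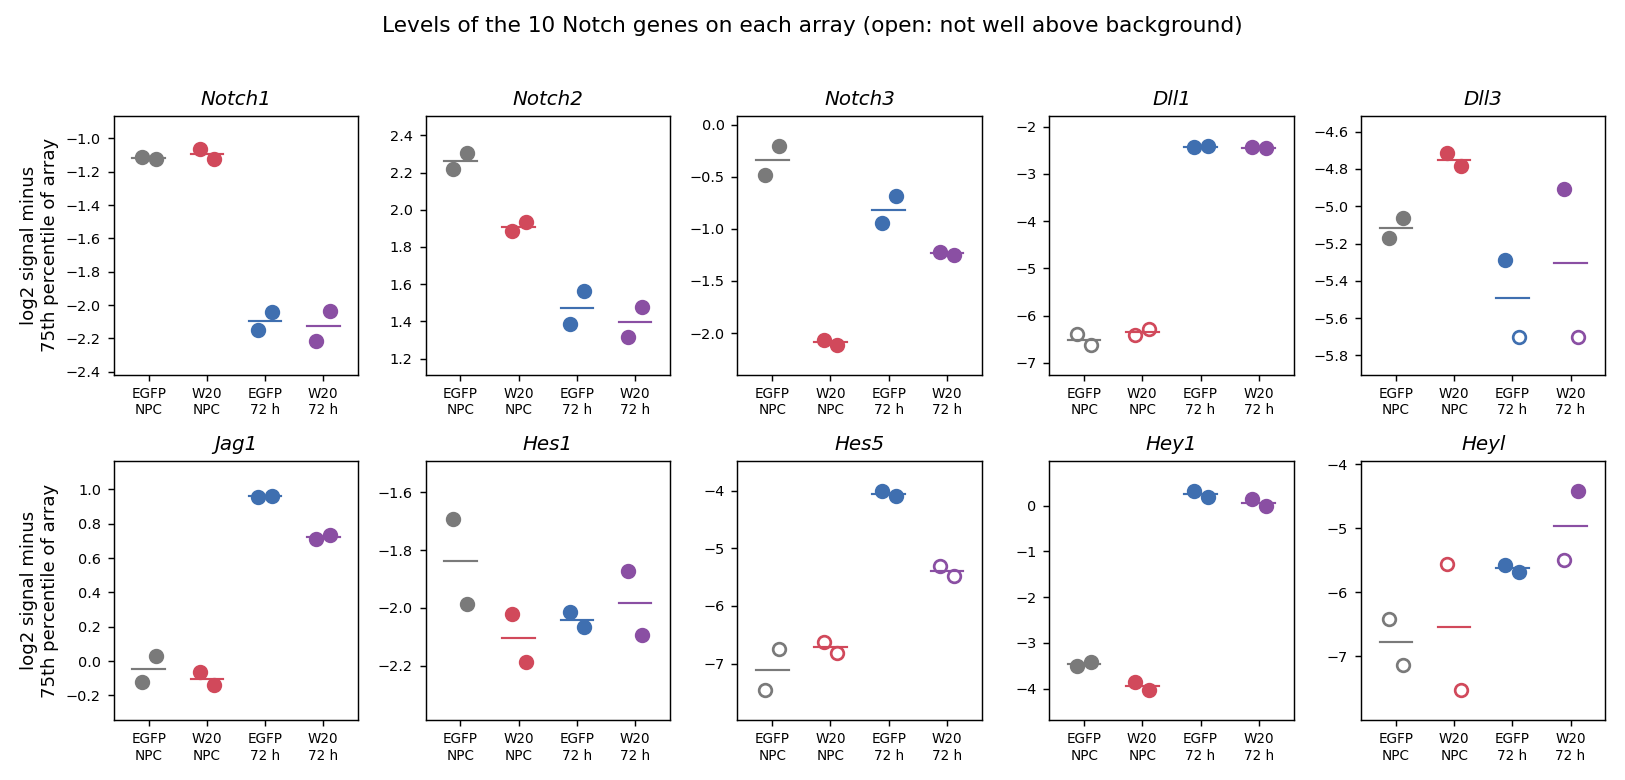
Levels of the 10 genes on each array, as log2 signal minus the 75th percentile of the array, by group; points are arrays, lines are group means of 2 arrays, and open points are not well above background. The vertical scales differ between panels; Notch3 was lowest in W20 NPC (-2.07 and -2.11), and Dll1 and Hey1 were higher on every 72 h array than on any NPC array.

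At 72 h, W20 cells had lower Hes5, Notch3 and Jag1 than EGFP cells. The 3 lower calls compare with 24.3% of all genes called lower and the 0 higher calls with 28.5% called higher. Of all calls in this comparison 53.9% were higher, against 39.8% with spike-in scaling and 64.6% when all probes were kept. Taken either way, 52.8% of all genes were called, and the members' 3 of 10 is not above that. At an unadjusted p under 0.05 the same 3 genes differed. The median over the 10 genes was -0.06, against 0.03 over all genes.

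Hes5, the HES repressor that marks Notch-active neural stem cells, was well above background only in EGFP cells at 72 h, with levels of -4.01 and -4.10. In W20 cells at 72 h it lay at -5.31 and -5.48, which was not well above background. That single group admitted Hes5 to the test, so the test is not independent of the level it compares. The 4 arrays did not overlap: the measured difference was -1.34 ± 0.22 (adjusted p = 0.00439), and, against the lowest signal well above background, Hes5 was at least 2.17-fold lower with W20. This call ended with normexp correction, which shrank the difference to -0.35 (adjusted p = 0.0615); that correction adds 50 units to signals that for Hes5 were 5.02 to 58.2.

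Notch3 was -0.94 and -0.69 in EGFP cells and -1.22 and -1.25 in W20 cells at 72 h. The W20 arrays were again the lower pair, now by -0.42 ± 0.11, or 1.34-fold (adjusted p = 0.0249). The call was lost without replicate 2 of EGFP at 72 h (adjusted p = 0.107) or without replicate 1 (adjusted p = 0.0787) or 2 (adjusted p = 0.0897) of W20 at 72 h. Of the 5 fibroblast markers 4 fell, with summed signals of 16.4 to 16.6 with EGFP and 9.33 to 9.36 with W20. Lum, 1 of the 5, was not well above background in either group. Of the 6 tested mural markers 5 fell and 1 rose, with sums of 59.4 to 61.2 and 36.9 to 37.6. Their part in the result was not tested.

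Jag1 was 0.96 on both EGFP arrays and 0.71 and 0.73 on the W20 arrays at 72 h. The difference of -0.24 ± 0.057, or 1.18-fold, was small but larger than the spread of the replicates (adjusted p = 0.0167). It lost the call without each of the 4 arrays at 72 h in turn (adjusted p 0.0518 to 0.0703), with spike-in scaling (adjusted p = 0.0501) and as the mean of both Jag1 probes (-0.12, adjusted p = 0.504). The second Jag1 probe, which is much dimmer, gave -0.003 ± 0.24 (adjusted p = 0.993 over all probes).

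Hey1 at 72 h was 0.31 and 0.19 with EGFP and 0.13 and -0.01 with W20, a difference of -0.19 ± 0.087 that missed the threshold (adjusted p = 0.111). Dll1 was level between the groups, at -2.44 and -2.41 with EGFP and -2.44 and -2.45 with W20 (difference -0.02 ± 0.080, adjusted p = 0.862). Notch1 (-0.03 ± 0.068, adjusted p = 0.716), Notch2 (-0.08 ± 0.081, adjusted p = 0.444) and Hes1 (0.06 ± 0.12, adjusted p = 0.708) were not called either. For Dll3, replicate 2 of both groups fell below the limit of detection, and the difference of 0.19 ± 0.27 was not called (adjusted p = 0.582). It ranged from -0.21 to 0.59 over the alternatives and passed without replicate 2 of W20 at 72 h (0.59, adjusted p = 0.0488).

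The probes of Heyl, a HEY-family repressor, disagreed. The tested probe gave 0.67 ± 0.70 (adjusted p = 0.451), with levels of -5.57 and -5.69 with EGFP and -5.50 and -4.42 with W20, of which the first W20 array was not above background. The other probe was above background only with EGFP, at -4.95 and -5.03 against -5.78 and -6.28 with W20. It was lower with W20 by -1.04 ± 0.31 (adjusted p = 0.0440 over all probes). EGFP cells at 72 h alone let it pass the filter, so this difference is in part fixed by the filter. No direction is given for Heyl at 72 h.

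**Figure D2:**
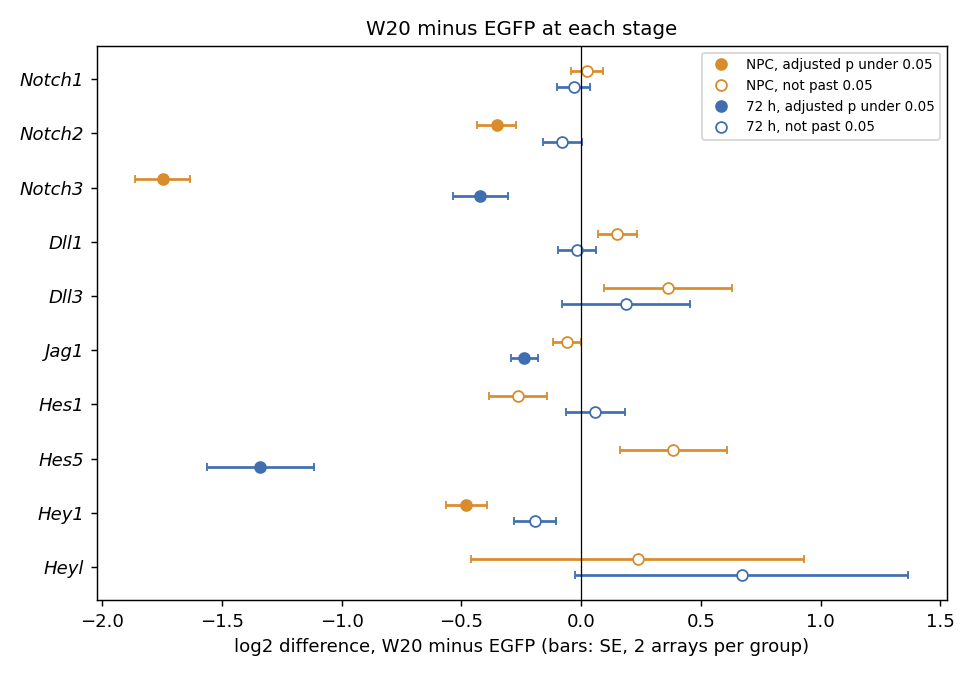
Log2 difference, W20 minus EGFP, of each gene in NPC (orange) and at 72 h (blue); points are estimates from 2 arrays per group, bars are SE, and filled points have an adjusted p under 0.05. Notch3 lies at -1.75 in NPC and -0.42 at 72 h, and Hes5 at -1.34 at 72 h; 3 of the 4 groups behind the Hes5 points were not well above background.

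The W20 effect was then compared between the stages, as the difference at 72 h minus that in NPC. Only Notch3 and Hes5 of the 10 genes passed this test, 1 in each direction, where 14.1% of all genes were called higher and 16.8% lower, 30.9% in all. The Notch3 effect was smaller at 72 h, by 1.33 ± 0.16 (adjusted p = 0.00291), and this held under all 17 alternatives, with adjusted p between 0.000690 and 0.0137. The Hes5 value was -1.72 ± 0.32 (adjusted p = 0.0115), but Hes5 was measured above background in 1 of the 4 groups, and the call ended with normexp correction (-0.16, adjusted p = 0.541). For Notch2 (0.27 ± 0.11, adjusted p = 0.128), Hey1 (0.29 ± 0.12, adjusted p = 0.137) and Jag1 (-0.18 ± 0.081, adjusted p = 0.155), the difference between stages did not pass. It did pass on the second well-detected Notch2 probe (0.21, adjusted p = 0.0439 over all probes), and for Jag1 without replicate 2 of EGFP NPC (-0.25, adjusted p = 0.0465).

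**Figure D3:**
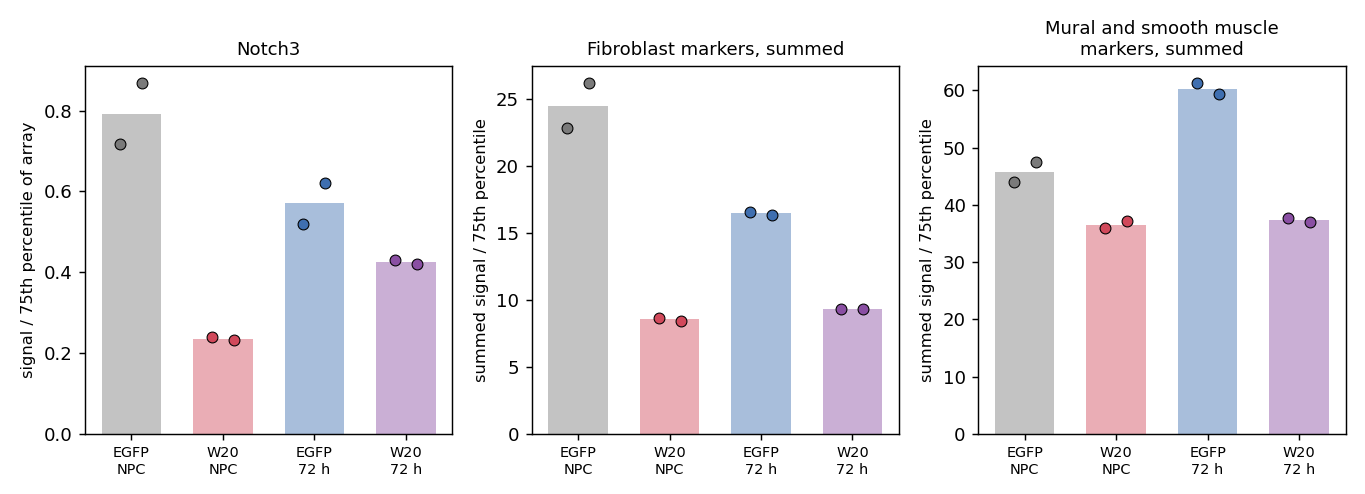
Signal of Notch3 and summed signals of 5 fibroblast and 7 mural and smooth muscle markers, relative to the 75th percentile of each array, by group; bars are means of 2 arrays and points are arrays. Fibroblast sums were 22.8 to 26.2 in EGFP NPC, 8.45 to 8.66 in W20 NPC, 16.4 to 16.6 in EGFP cells at 72 h and 9.33 to 9.36 in W20 cells at 72 h.

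Over the 72 h in EGFP cells, the ligands Dll1 and Jag1 and the effectors Hes5 and Hey1 rose, the receptors Notch1, Notch2 and Notch3 fell, and Dll3, Hes1 and Heyl were not called. The 4 higher and 3 lower calls compare with 36.1% of all genes called higher and 33.9% lower, 69.9% in all, so 7 of 10 is at the background and is no result about these genes as a set. The median over the 10 genes was 0.40, against 0.01 over all genes. In W20 cells 5 were called higher, of which Hes5 was below background at both stages, and 2 fell, against 37.5% and 37.2% of all genes (74.7% in all), with a median of 0.84 against 0.01. Both medians include Dll1, Hes5 and Heyl, whose tested probes passed the filter only through cells at 72 h. The medians are therefore in part fixed by the filter and give no result about the set. The EGFP and W20 comparisons share no arrays, but in both the stage cannot be told apart from the slide.

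Markers of other cell types moved over the same time. Of 4 tested astrocyte markers 4 fell with EGFP, and 3 fell and 1 rose with W20. Gfap, 1 of the 4, was well above background only on the 2 EGFP NPC arrays. Its fall with EGFP is thus in part fixed by the filter. With W20 it was below background at both stages, so its direction in the W20 counts is not read as a change. The sum over 6 went from 4.63 on both arrays to between 2.34 and 2.46 with EGFP and from between 3.98 and 4.11 to between 2.04 and 2.06 with W20. Of 4 tested neuron markers 2 rose and 1 fell with EGFP and 3 rose with W20. The sum over 7 went from between 1.7 and 1.8 to between 5.03 and 5.33 with EGFP. With W20 it went from between 1.35 and 1.37 to between 6.6 and 7.0. Syp and Snap25, among the 7, were above background on no array. Rbfox3, 1 of the 4 tested, passed the filter only through EGFP cells at 72 h, so its change with EGFP is in part fixed by the filter. Of 3 tested markers of the oligodendrocyte lineage 2 rose in both, and the sum over 6 went from between 1.80 and 1.81 to between 3.33 and 3.44 with EGFP and from between 1.84 and 1.94 to between 4.27 and 4.36 with W20. Their part in the changes of the Notch genes was not tested.

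Hey1 rose most among the genes that were measured above background in every group. In EGFP cells it went from -3.51 and -3.41 to 0.31 and 0.19, a difference of 3.72 ± 0.087 or 13.1-fold (adjusted p = 1.33e-06). In W20 cells it went from -3.85 and -4.03 to 0.13 and -0.01, a difference of 4.00 ± 0.087 or 16.0-fold (adjusted p = 5.79e-07). No 72 h array came near an NPC array. Over the alternatives the differences were 2.84 to 3.78 with EGFP and 2.93 to 4.09 with W20.

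Dll1 was not above background on any NPC array, with levels of -6.40 and -6.62 with EGFP and -6.42 and -6.29 with W20, and was above it on every 72 h array. Against the lowest signal well above background it was at least 9.21-fold higher at 72 h in EGFP cells (measured difference 4.08 ± 0.080, adjusted p = 8.28e-07) and at least 7.92-fold higher in W20 cells (3.91 ± 0.080, adjusted p = 4.84e-07). The Dll1 probe was printed 10 times on each array, and its value is the mean of those spots. With normexp the differences shrank to 1.38 and 1.59 and kept their calls.

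Hes5 rose in EGFP cells from -7.46 and -6.75 to -4.01 and -4.10, at least 2.98-fold (measured difference 3.05 ± 0.22, adjusted p = 7.48e-05). In W20 cells it went from -6.62 and -6.81 to -5.31 and -5.48, a difference of 1.33 ± 0.22 (adjusted p = 0.00229), with all 4 of these arrays not well above background, so no fold is given. The W20 call ended with normexp (0.32, adjusted p = 0.0536), whereas the EGFP call stayed with a smaller difference of 0.49 (adjusted p = 0.0108).

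Jag1 rose in EGFP cells from -0.12 and 0.03 to 0.96 and 0.96, by 1.00 ± 0.057 or 2.01-fold (adjusted p = 2.73e-05). In W20 cells the rise, from -0.07 and -0.14 to 0.71 and 0.73, was 0.83 ± 0.057 or 1.77-fold (adjusted p = 4.37e-05). The second Jag1 probe rose as well, by 0.69 ± 0.24 with EGFP and 0.73 ± 0.24 with W20. Dll3 was not called, with differences of -0.38 ± 0.27 (adjusted p = 0.251) with EGFP and -0.55 ± 0.27 (adjusted p = 0.107) with W20. The W20 value passed without replicate 1 of W20 at 72 h (-0.95, adjusted p = 0.00665).

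The receptors Notch1 and Notch2 fell in both kinds of cells. Notch1 went from -1.11 and -1.12 to -2.15 and -2.04 in EGFP cells, 1.97-fold lower (-0.98 ± 0.068, adjusted p = 6.08e-05). In W20 cells it went from -1.07 and -1.12 to -2.22 and -2.04, 2.05-fold lower (-1.03 ± 0.068, adjusted p = 3.53e-05). Every 72 h array was thus below every NPC array. Notch2 went from 2.22 and 2.30 to 1.38 and 1.56 with EGFP (-0.79 ± 0.081, adjusted p = 0.000302) and from 1.89 and 1.93 to 1.31 and 1.48 with W20 (-0.51 ± 0.081, adjusted p = 0.00168). The other well-detected Notch2 probe fell too, by -0.62 ± 0.038 and -0.41 ± 0.038, and the dim one gave -0.32 ± 0.17 (adjusted p = 0.143) and -0.53 ± 0.17 (adjusted p = 0.0328).

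Notch3 fell in EGFP cells and rose in W20 cells. The change was -0.47 ± 0.11 with EGFP, or 1.39-fold lower (adjusted p = 0.0115), a call lost without replicate 1 of EGFP at 72 h (adjusted p = 0.0536). With W20 it was 0.85 ± 0.11, or 1.81-fold higher (adjusted p = 0.000818), and was called under all 18 alternatives. The order of the 4 groups, from low to high, was W20 NPC, W20 at 72 h, EGFP at 72 h and EGFP NPC, and each group stood apart from its neighbour in the tests above, though only the step from W20 NPC to W20 at 72 h kept its call under all alternatives. The summed fibroblast markers had the same order, and the summed mural markers did not, being highest in EGFP cells at 72 h. Marker by marker, of 5 fibroblast markers 0 rose and 4 fell over 72 h with EGFP, and 1 rose and 2 fell with W20. Lum, 1 of the 5, passed the filter only through EGFP NPC. Of 6 tested mural markers 3 rose and 2 fell in both kinds of cells. Pdgfrb, 1 of these 6, changed by -0.33 with EGFP and 0.81 with W20. The part of these markers in the Notch3 pattern was not tested.

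Hes1 was not called in either comparison, with differences of -0.20 ± 0.12 in EGFP cells (adjusted p = 0.189) and 0.12 ± 0.12 in W20 cells (adjusted p = 0.400). Its 8 levels spanned only 0.49 log2 units, between -2.19 and -1.69. The EGFP value passed with normexp (-0.23, adjusted p = 0.0355). Heyl gave 1.15 ± 0.70 (adjusted p = 0.187) and 1.59 ± 0.70 (adjusted p = 0.0825) on the tested probe, the first with EGFP and the second with W20. The other Heyl probe rose with EGFP, by 2.08 ± 0.31 (adjusted p = 0.00216 over all probes). With W20 it was below background at both stages, with a measured difference of 1.17 ± 0.31. Both Heyl probes passed the filter only through EGFP cells at 72 h. Rises with EGFP, on either probe or their mean, are thus in part fixed by the filter. In W20 cells, only the tested probe, on 1 array at 72 h, was above background. As the mean of both probes Heyl passed with EGFP (1.62, adjusted p = 0.0144) and W20 (1.38, adjusted p = 0.0242); the tested probe passed in the fit of only the 4 EGFP arrays (adjusted p = 0.0218) and, with W20, without replicate 1 of W20 NPC (2.57, adjusted p = 0.00864).

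**Figure D4:**
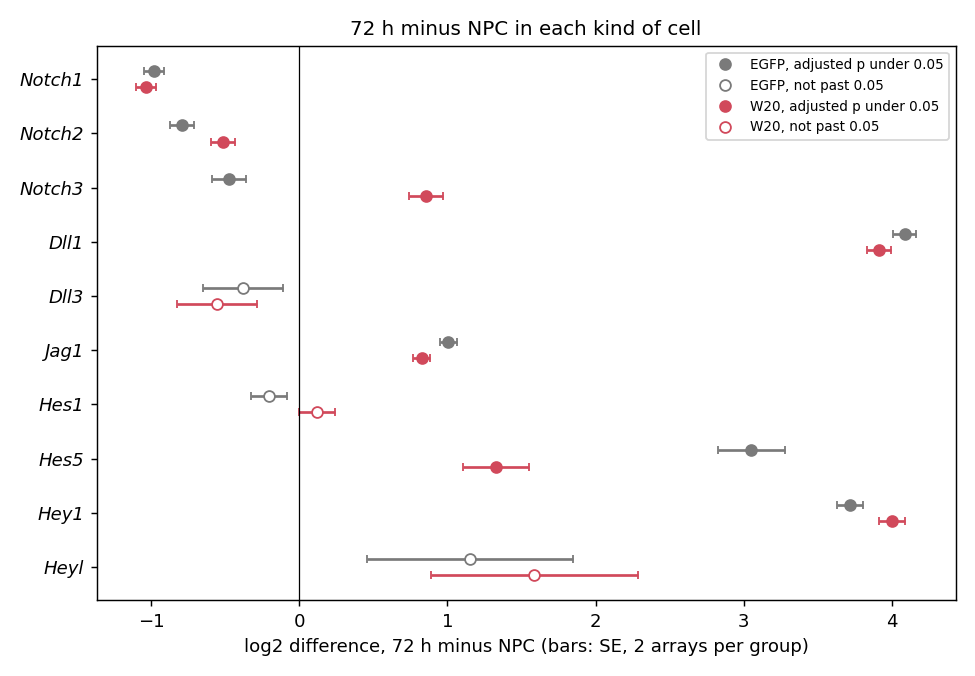
Log2 difference, 72 h minus NPC, of each gene in EGFP cells (grey) and W20 cells (red); points are estimates from 2 arrays per group, bars are SE, and filled points have an adjusted p under 0.05. Dll1 and Hey1 lie between 3.72 and 4.08 in both, and Notch3 lies at -0.47 with EGFP and 0.85 with W20.

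The genes whose levels followed a member most closely over the 8 arrays were looked up for 4 of the 10, among 13604 others, as the root mean square (RMS) difference of levels centred on their mean. Nearest to Notch1 were Pkn3 (0.057), Plekha2 (0.058) and Mcm9 (0.072), where Notch1 itself spanned 1.15 log2 units. Nearest to Jag1 were AA986860 (0.054), Mboat1 (0.071) and Atp6v0e2 (0.084), against a span of 1.11. Hes1 had Col9a2 (0.063), Ankrd13d (0.086) and Pcgf5 (0.089) nearest, with its small span. The RMS values of Hes5 were larger, 0.34 for Kcnab1, 0.37 for Psca and 0.41 for Slco1a5, against a span of 3.45. Genes on the same arrays share their libraries, and a close pattern is a description only.

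The rest of the pathway was described with 59 further genes in lists by role, of which 54 had a probe and 48 were tested. In NPC 8 were higher and 16 lower with W20 (median -0.05), and at 72 h 6 and 18 (median -0.07). Of all genes, 31.8% were higher and 23.7% lower with W20 in NPC, and 28.5% and 24.3% at 72 h. The other shares are those given above. The counts by role below stand against the same shares and are too small to be results about a role. Over the 72 h 15 rose and 13 fell with EGFP (median 0.06), and 16 and 15 with W20 (median -0.00). The W20 effect differed between stages for 5 upwards and 5 downwards. Dll4, Aph1c, Itch, Dtx1, Hes3 and Hey2 were above background on none of the 8 arrays, and Dlk2, Adam10, Hdac1 and Numbl were among the genes not matched to a probe.

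Of the remaining receptor and ligands, Notch4, the receptor known from endothelium, rose over 72 h by 1.84 ± 0.078 with EGFP (3.57-fold, adjusted p = 9.10e-06) and 2.20 ± 0.078 with W20 (4.60-fold, adjusted p = 2.91e-06), and was not called between W20 and EGFP at either stage. Of 7 endothelial markers, Pecam1, Cdh5 and Tie1 were above background on none of the 8 arrays, and 2 of the 3 tested rose over 72 h with both EGFP and W20. These were Kdr, detected on the 4 arrays at 72 h (4.12 ± 0.11 with EGFP and 4.70 ± 0.11 with W20), and Tek, detected on 3 (3.52 ± 0.19 and 2.14 ± 0.19). Neither rose above background on an NPC array, and both passed the filter only through cells at 72 h. Their rises are thus in part fixed by the filter, and no fold is given. The summed signal of the 7 went from between 0.095 and 0.13 to between 0.23 and 0.24 with EGFP and from between 0.073 and 0.085 to between 0.24 and 0.26 with W20, and its part in the Notch4 result was not tested. Dlk1, a non-canonical ligand that lacks the receptor-binding DSL domain, had levels of 1.60 and 1.65 in EGFP NPC, 0.85 and 0.84 in W20 NPC, 0.11 and 0.21 in EGFP cells at 72 h and -2.17 and -2.28 in W20 cells at 72 h. The 4 groups were clearly separate. W20 cells were 1.72-fold lower in NPC (-0.78 ± 0.052, adjusted p = 0.000196) and 5.24-fold lower at 72 h (-2.39 ± 0.052, adjusted p = 2.14e-05). Dner, a neuronal non-canonical ligand, was -3.71 on both EGFP arrays at 72 h and not well above background with W20, at least 2.82-fold lower (measured difference -2.10 ± 0.20, adjusted p = 0.000552; -0.61 with normexp, still called), and was not called in NPC. With Jag2 these made 3 tested ligands, of which 0 were higher and 1 lower in NPC, and 0 and 2 at 72 h.

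Of the fringe glycosyltransferases, which set the ligand preference of Notch receptors, Mfng was higher and Lfng lower with W20 at both stages. Mfng was -2.58 and -2.73 in EGFP NPC and -1.45 and -1.43 in W20 NPC, and -0.68 and -0.70 with EGFP and 0.46 and 0.30 with W20 at 72 h. It was thus higher with W20 at both stages, 2.31-fold in NPC (1.21 ± 0.069, adjusted p = 0.000137) and 2.10-fold at 72 h (1.07 ± 0.069, adjusted p = 0.000176), and rose over time 3.89-fold with EGFP (adjusted p = 4.74e-06) and 3.54-fold with W20 (adjusted p = 3.80e-06). With normexp the Mfng difference in NPC was 0.77 and kept its call. Lfng was lower with W20 by -0.45 ± 0.040 in NPC (adjusted p = 0.000445) and -0.54 ± 0.040 at 72 h (adjusted p = 0.000278). Rfng rose over time, by 0.83 ± 0.080 with EGFP and 1.30 ± 0.080 with W20; the EGFP value was 0.45 with normexp and still called. Among the 6 maturation and glycosylation genes, 1 was higher and 2 lower with W20 at each stage, and 5 rose and 1 fell over 72 h in both kinds of cells.

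Of the 6 tested genes for ligand ubiquitination and endocytosis, a step that ligands need to pull on the receptor, 3 were higher and 1 lower with W20 in NPC, and 1 and 2 at 72 h. Neurl1a, a Neuralized ubiquitin ligase, fell over 72 h by -0.86 ± 0.049 with EGFP (adjusted p = 2.63e-05) and -1.16 ± 0.049 with W20 (adjusted p = 5.58e-06). Of the 6 receptor cleavage genes, none was higher and 3 were lower with W20 at each stage. The gamma-secretase subunit gene Aph1b was among them (-0.52 ± 0.046 and -0.38 ± 0.046), with the reservation that its near copy Aph1c may share signal with its probe.

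In the nucleus, the gene of the DNA-binding partner itself fell over 72 h. Rbpj was 1.64 and 1.65 in EGFP NPC and 0.14 and 0.08 in EGFP cells at 72 h, 2.89-fold lower (-1.53 ± 0.032, adjusted p = 9.35e-07). In W20 cells it went from 1.40 and 1.42 to -0.07 and -0.09, 2.81-fold lower (-1.49 ± 0.032, adjusted p = 5.48e-07). Every 72 h array was below every NPC array, while Hey1 was higher there. The Mastermind coactivator gene Maml2 was lower with W20 by -0.78 ± 0.078 in NPC (adjusted p = 0.000633) and -0.69 ± 0.078 at 72 h (adjusted p = 0.00105), the latter -0.31 with normexp and still called. Kat2b, another activator gene, rose over 72 h by 1.10 ± 0.062 with EGFP (adjusted p = 2.56e-05) and 0.97 ± 0.062 with W20 (adjusted p = 3.00e-05). Of the 9 activator genes 1 was higher and 3 lower with W20 in NPC, and 2 and 3 at 72 h. Over the 72 h 1 rose and 3 fell with EGFP, and 2 and 3 with W20.

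Groucho-family corepressors, which HES proteins recruit, were in part lower with W20 in NPC: of 8 corepressor genes 1 was higher and 4 were lower, and at 72 h 0 and 4. Tle4 was 1.45 on both EGFP NPC arrays and 0.25 on both W20 NPC arrays, 2.29-fold lower (-1.20 ± 0.037, adjusted p = 5.36e-05). It rose over 72 h in both, by 0.61 ± 0.037 with EGFP and 1.59 ± 0.037 with W20. Tle1 was lower by -0.95 ± 0.054 in NPC (adjusted p = 0.000132) and -0.40 ± 0.054 at 72 h (adjusted p = 0.00190). Tle2 fell over 72 h, by -1.34 ± 0.12 with EGFP and -1.06 ± 0.12 with W20.

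Of 6 negative regulators of the receptor, none was higher and 2 were lower with W20 at each stage. Nrarp, a Notch target that feeds back to restrain the pathway, was lower with W20 in NPC (-0.43 ± 0.078, adjusted p = 0.00566) and rose over 72 h by 0.99 ± 0.078 with EGFP (adjusted p = 9.84e-05) and 1.51 ± 0.078 with W20 (adjusted p = 1.28e-05). These 2 rises were 0.62 and 0.99 with normexp and kept their calls. Dtx4, a Deltex ubiquitin ligase, fell by -1.29 ± 0.054 and -1.53 ± 0.054. Of the 3 other HES genes tested, 2, Hes2 and Hes6, were higher with W20 at each stage. The Hes2 call was lost in 6 of 19 alternatives in NPC and 7 of 18 at 72 h, its second probe gave -0.20 in NPC (adjusted p = 0.666 over all probes), and the Hes6 call in NPC was lost in 4 of 19. Hes6, which antagonises Hes1, rose over 72 h by 0.89 ± 0.040 with EGFP (adjusted p = 1.09e-05) and 1.15 ± 0.040 with W20 (adjusted p = 2.65e-06), and at 72 h was higher with W20 by 0.44 ± 0.040 (adjusted p = 0.000487).

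**Figure D5:**
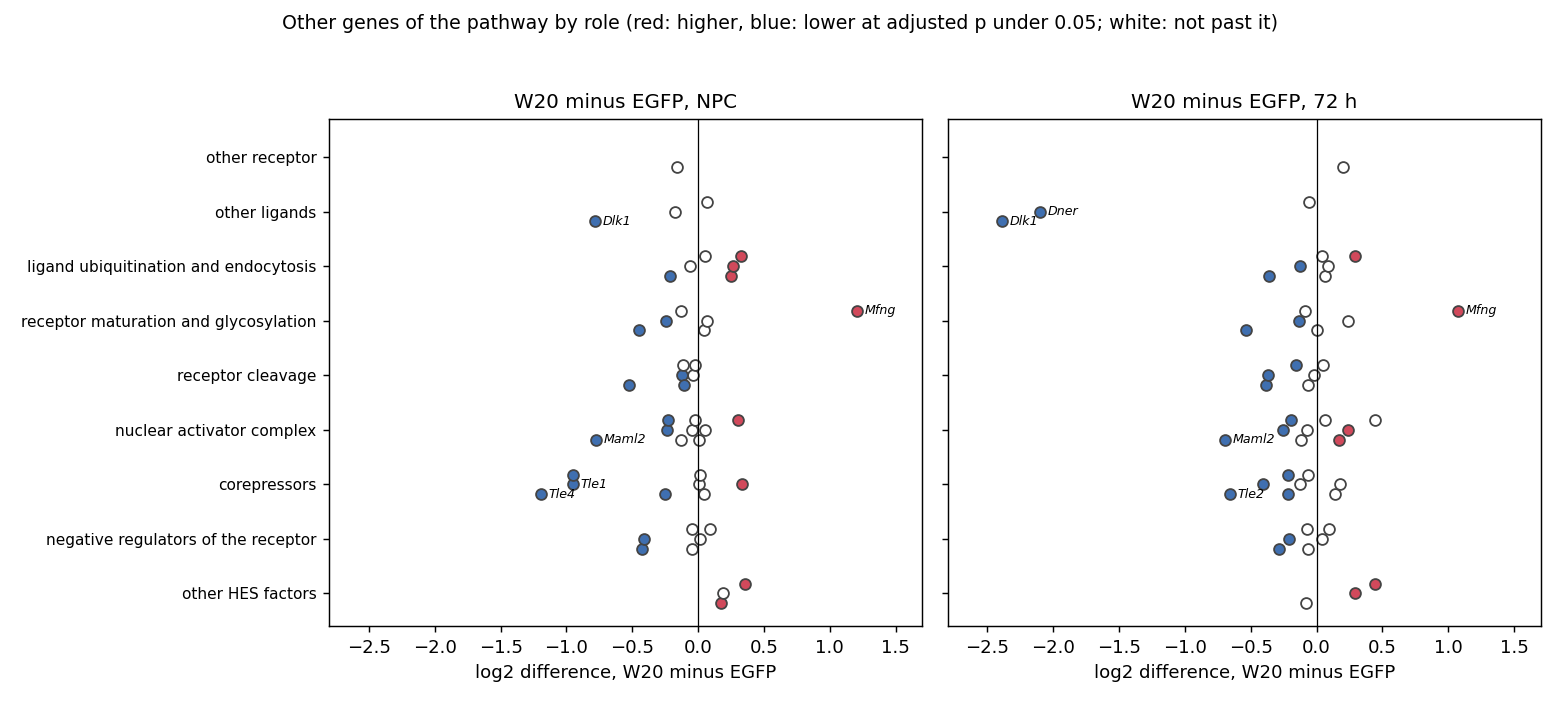
Log2 difference, W20 minus EGFP, of the 48 other pathway genes tested, by role, in NPC and at 72 h; each point is a gene, red is higher and blue lower at an adjusted p under 0.05, and white did not pass. Mfng lies at 1.21 and 1.07, Dlk1 at -0.78 and -2.39, and Tle4 at -1.20 in NPC.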

How the data were processed

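The deposited scanner files hold spot intensity values on a linear scale, which the authors' scanner software had corrected for background (per the file headers, version 10.7.3.1 of Agilent Feature Extraction). The probe coordinates of the array design follow mm9, per the file headers, and none is used here. The authors' deposited value table is on a log2 scale with centring unstated. Its NPC columns equalled their own arrays within 0.01 after a shift of 0.070 to 0.078, and its 72 h columns did so for 4.13% to 14.1% of probes, so it served only as an alternative in NPC. Column medians were -3.78, -3.73, -3.82 and -3.78 in NPC and -3.77, -3.88, -3.83 and -3.91 at 72 h.

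Here, the processed signal was taken as log2 minus the 75th percentile of the array. Outlier spots (95 to 137 per array) were left out, no spot was saturated, and spots of a probe were averaged. RefSeq (GRCm38.p6) gave 27584 of 41174 probes a symbol, and 13590 had none. Each gene was tested on its brightest probe (mean of the 8 arrays), with the filter on dim probes given above. The 4 group means were fitted with limma 3.58.1 in R 4.3.3 (4 residual and 1.75 prior degrees of freedom), two-sided, Benjamini-Hochberg adjusted, threshold 0.05. The steps were tested on simulated data. Where no array of a group was well above background, a fold is "at least": there the dim probe was set, on each array, to the lowest signal that any probe had well above background, or to its own signal if that was higher, before averaging. Alternatives changed background correction, scaling, filter, probe choice, arrays fitted, the replicate block and each array in turn; normexp used the median signal of each spot, a choice made after seeing the data. All 10 genes are named; of each pathway list, those named come from the 2 with the largest called difference or from called differences of at least 2-fold. The genes and lists were chosen with earlier results of these data known. The number of arrays limits the precision.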

Additional observations from a re-analysis of the deposited data

Results flagged for a closer look

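The effect of W20 differed between NPC and 72 h, by the interaction test of the limma fit, for 2 of the 10 genes. For Notch3 the effect at 72 h minus that in NPC was 1.327 on the log2 scale (adjusted p = 0.00291). For Hes5 it was -1.723 (adjusted p = 0.0115), with 3 of the 4 groups not well above background.

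The same test singled out 10 other pathway genes. It was positive for Tle4 (0.977), Tle1 (0.5494), Nrarp (0.5167), Rfng (0.4788) and Hes6 (0.266), and negative for Dner (-2.175), Dlk1 (-1.605), Neurl1a (-0.2971), Ncstn (-0.2544) and Furin (-0.2073). Dlk1, Dner, Tle1 and Tle4 stayed called under every alternative run for them, and each of the other 6 lost its call under at least 6.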

How the results depend on the processing

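Of the alternatives for the 10 genes, 844 of 880 gene, comparison and setting combinations kept their side of the threshold with no called value changing sign; uncalled values could change sign, as Notch1 in NPC (-0.02 to 0.08) did. The report names the changes beside the results. For the other pathway genes named by the rule, 108 of 1351 combinations changed. Spike-in scaling lowered the genes called higher with W20 to 2385 in NPC and 1676 at 72 h, and those that differed between stages to 866 higher and 1056 lower; median scaling gave 1154 higher. Of the 10, only 1 differed between stages with normexp and with the filter that asks for signal on all 8 arrays, which leaves out Hes5. The cause was not tested for the other counts. Leaving out 1 array at a time, 2 to 4 of the 10 were called in NPC, 1 to 3 at 72 h, 6 to 7 over 72 h with EGFP, 7 to 8 with W20, and 2 to 3 between stages. The lowest count at 72 h, 1, came without replicate 2 of EGFP or replicate 1 of W20 at 72 h.

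Signs turned for Heyl at 72 h with every probe on its own (-1.04, adjusted p = 0.0440), Hes7 over 72 h with EGFP under normexp (-0.084 in place of 0.76, adjusted p = 0.428) and Ncstn between stages under normexp (0.013, adjusted p = 0.939). Same-numbered arrays deviated together with r of -0.09 to 0.15. With so few arrays per group, these values cannot decide whether same-numbered arrays share a culture or handling. With the replicate block 4, 3, 8, 7 and 3 of the 10 genes were called in the 5 comparisons. The block added Hes1, lower in NPC (adjusted p = 0.0224) and over 72 h with EGFP (adjusted p = 0.0398). It also added Notch2 between stages (adjusted p = 0.0356). Slide as a block was not run, since each stage lies on 1 slide. Dim signals limit Hes5, Heyl, Dll3 and NPC Dll1.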
